A study of Mus musculus with 24 samples.

Results

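The 8 genes described here encode the switch on pyruvate dehydrogenase: the 4 kinases Pdk1, Pdk2, Pdk3 and Pdk4, the 2 phosphatases Pdp1 and Pdp2, and Pdha1 and Pdhb, the 2 subunits of the E1 enzyme on which they act. They were picked by gene symbol, and are 8 of 19937 genes measured on 24 arrays of mouse primary keratinocytes of the strain C57/BL6, the epidermal cells grown in culture. Cells came from wild-type mice and from Ppar-beta null mice, which lack a functional Ppard gene, the gene of the fatty acid-activated nuclear receptor PPAR-beta. Both genotypes were either mock infected or given a retrovirus encoding activated Hras, an oncogenic form of a growth-signalling GTPase, for 48 hours, and were given 1 uM GW0742, a synthetic agonist of PPAR-beta, or its solvent DMSO for 24 hours. The 8 groups are therefore wild-type mock with DMSO, wild-type mock with GW0742, wild-type Hras with DMSO, wild-type Hras with GW0742, and the same 4 in null cells, with 3 arrays each. Nothing in the labels says that the 3 came from separate mice or cultures, so every p-value here reflects the scatter of these arrays alone, which may be technical. Mock cells are not stated to have received an empty virus, so Hras and the infection itself cannot be told apart.

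Pyruvate dehydrogenase turns pyruvate from glycolysis into acetyl-CoA inside the mitochondrion and so commits sugar carbon to the citrate cycle or to lipid synthesis. The kinases phosphorylate Pdha1 and switch the complex off, and the phosphatases remove the phosphate and switch it on. Pdk4 is a well known target gene of the PPAR receptors and rises in fasted muscle and liver, when fat replaces sugar as fuel. Pdk1 is a well known target of the hypoxia-inducible factors (HIF), which raise glycolysis and lower mitochondrial oxidation. Transcript levels alone do not give the phosphorylation state or the activity of the complex, which were not measured.

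Array medians lay between 7.46 and 7.53 on the log2 scale, and any 2 arrays correlated at 0.9708 or more. The null Hras arrays with GW0742 spread more than the others, with a median SD over all genes of 0.122 against 0.0647 to 0.0798 in the other 7 groups. Of 10 keratinocyte markers, Krt5 lay between 14 and 14.3 and Krt14 between 13.9 and 14.1 in every array, near the top of the scale. Krt1 (7.14 to 13.9) and Krt10 (7.78 to 13.1), keratins of differentiating cells, varied widely. The cells thus bore the marks of keratinocytes, without being assigned to 1 layer. The melanocyte genes Dct (10.7 to 12) and Tyrp1 (11.3 to 12.7) were also well expressed. The probe set of Ppard, the targeted gene, read lower in null cells by -0.57 ± 0.06 after mock infection with DMSO (limma, adjusted p = 1.53e-06) and still read 10.62 there. The labels do not name the deleted exons, so this probe set does not by itself test the genotype labels. Levels below are log2 expression, given as mean ± SD over 3 arrays. Differences are log2 differences ± standard error from 1 limma model of all 24 arrays, and a change passed the test where its p-value, adjusted over all 19937 genes, was under 0.05. Levels are compared only within a gene, because probe sets of different genes do not share a scale.

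GW0742 raised Pdk4 by 4.14 on the log2 scale in wild-type mock cells and by 5.83 in wild-type Hras cells, and its change in null cells was at most 0.29. Pdk4 was thus the gene of the family with by far the widest range, 5.97 between its lowest and highest group, a 62.5-fold span that 3 genes of 19937 exceeded. In wild-type mock cells its 3 arrays read 6.74, 6.78 and 6.87 with DMSO and 10.99, 10.93 and 10.90 with GW0742. In wild-type Hras cells they read 6.71, 6.45 and 6.75 with DMSO and 12.33, 12.45 and 12.61 with GW0742. The ligand groups stood more than 4 units above their controls, with no overlap, and the 3 arrays of each group lay within 0.3 of each other. A lack of overlap by any margin held for 24.8% of all genes in wild-type mock and 22.3% in wild-type Hras cells. The rise was 4.14 ± 0.08 (17.7-fold, adjusted p = 1.06e-18) in mock cells and 5.83 ± 0.08 (56.9-fold, adjusted p = 1.03e-21) in Hras cells. By absolute size the former was the second of all 19937 changes in its comparison and the latter the first.

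**Figure D1:**
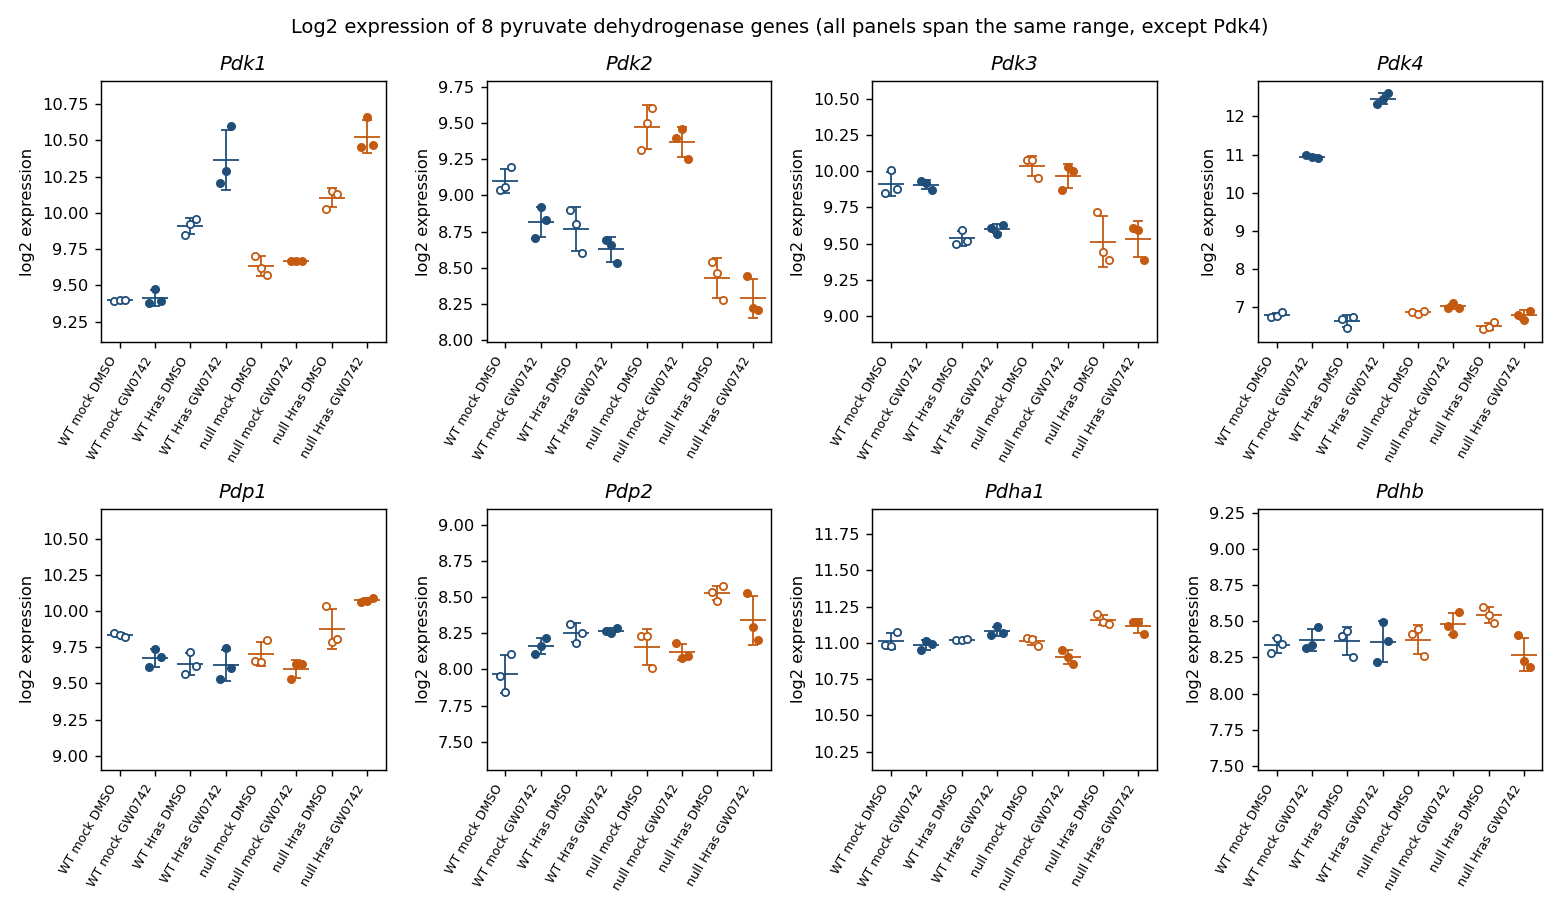
Log2 expression of the 8 genes in the 8 groups, wild-type in blue and null in orange, with open points for DMSO and filled points for GW0742. Each point is 1 array, and each bar is the mean with the SD of 3 arrays. The vertical axes of 7 panels span the same range and that of Pdk4 is wider. Pdk4 stands between 10.90 and 12.61 in the 2 wild-type GW0742 groups and between 6.42 and 7.10 in the other 6 groups.

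In null cells Pdk4 read 6.88, 6.82 and 6.90 with DMSO and 6.98, 7.10 and 6.98 with GW0742 after mock infection. After Hras it read 6.42, 6.47 and 6.6 with DMSO and 6.79, 6.65 and 6.91 with GW0742. The null arrays ran from 6.42 to 7.10 and the wild-type DMSO arrays from 6.45 to 6.87, so the null mock GW0742 arrays lay above all wild-type DMSO arrays by a small margin. Within each pair of null groups the GW0742 arrays were the higher ones, with no overlap. A lack of overlap in either direction held for 13.4% of all genes in null mock and 15.1% in null Hras cells. The difference in Pdk4 was 0.16 ± 0.08 in null mock cells (adjusted p = 0.903) and 0.29 ± 0.08 in null Hras cells (adjusted p = 0.0431). The latter passed narrowly, and it no longer passed when null Hras DMSO replicate 1 (0.25, adjusted p = 0.178), null Hras DMSO replicate 2 (0.28, adjusted p = 0.123) or null Hras GW0742 replicate 3 (0.22, adjusted p = 0.193) was left out. Tested directly, the GW0742 effect on Pdk4, null minus wild-type, was -3.99 ± 0.12 after mock infection (adjusted p = 2.56e-15) and -5.54 ± 0.12 after Hras (adjusted p = 3.31e-18). Pdk4 was the 1 gene of the 8 to pass either test, in which 0.848% and 1.73% of all genes passed. Of 5 measured adipocyte markers and 7 striated muscle markers, 0 passed in any of the 4 ligand comparisons. In wild-type mock, wild-type Hras, null mock and null Hras cells 2.86%, 6.11%, 0% and 5.02% of all genes passed. The adipocyte markers ran from Adipoq (4.93 to 5.33) to Plin1 (7.21 to 7.69), and the muscle marker Acta1 reached 9.48. With GW0742 in null Hras cells, 5 of 6 melanocyte and 1 of 10 keratinocyte markers rose, and 1 of 8 fibroblast markers fell. The part of any of these cell types in the Pdk4 values was not tested.

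Hras raised Pdk4 in wild-type cells given GW0742 and lowered it in null cells. In wild-type cells with GW0742 it rose by 1.52 ± 0.08 (2.88-fold, adjusted p = 1.76e-12), and with DMSO the difference was -0.16 ± 0.08 (adjusted p = 0.138). The rise with GW0742 in wild-type cells was therefore larger after Hras by 1.69 ± 0.12 (adjusted p = 2.71e-08), the tenth of all genes by absolute size. In null cells Pdk4 fell with Hras by 0.37 on the log2 scale with DMSO (adjusted p = 0.000778) and by 0.24 with GW0742 (adjusted p = 0.0227). The second of these no longer passed without null mock GW0742 replicate 2 (-0.20, adjusted p = 0.101) or null Hras GW0742 replicate 2 (-0.17, adjusted p = 0.136). Null minus wild-type, the Hras effect on Pdk4 was -0.21 ± 0.12 with DMSO and did not pass (adjusted p = 0.273). With GW0742 it was -1.76 ± 0.12 and passed (adjusted p = 1.97e-09). With GW0742, null cells read lower than wild-type by -3.92 ± 0.08 in mock cells (15.1-fold, adjusted p = 3.33e-18) and by -5.68 ± 0.08 in Hras cells (51.2-fold, adjusted p = 1.76e-21). With DMSO the genotypes differed by 0.07 ± 0.08 in mock cells (95% interval -0.10 to 0.24) and by -0.14 ± 0.08 in Hras cells (95% interval -0.31 to 0.03), and neither difference passed. In the order of its 8 group means, the 6 lower groups ran from 6.50 to 7.02 with no step between neighbours that passed. The steps up to wild-type mock with GW0742 (3.92) and from there to wild-type Hras with GW0742 (1.52) both passed. Each of the 6 lower means lay under the array medians, which ran from 7.46 to 7.53. Signal over background was not given, so the small Pdk4 differences among these groups were not separated from background. The fold rises with GW0742 in wild-type cells start from the same low levels.

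Well known PPAR target genes outside the family gave a setting for Pdk4. The 10 listed include the fatty acid importer of mitochondria Cpt1a and the lipoprotein lipase inhibitor Angptl4, and 9 were measured. All 9 rose with GW0742 in wild-type mock cells (2.86% of all genes passed) and in wild-type Hras cells (6.11% of all genes). In null mock cells 0 passed, and in null Hras cells Fabp4 and Hadhb rose and Angptl4 fell. The median change of the list was 1.13 and 1.32 in wild-type mock and Hras cells, against medians of all genes within 0.01 of 0, and -0.07 and -0.02 in null mock and Hras cells. The null minus wild-type difference of the ligand effect was negative and passed for 8 of 9 in mock cells and for 8 of 9 in Hras cells. Pdk4 responded more after Hras, whereas for 7 of these 9 the difference of the ligand effect between wild-type Hras and mock cells did not pass. It was larger after Hras for Fabp4, a fatty acid carrier, by 1.04 ± 0.16 (adjusted p = 0.00056), and smaller for Angptl4 by -1.83 ± 0.15 (adjusted p = 5.91e-07). Angptl4 rose by 4.17 ± 0.11 in mock and by 2.34 ± 0.11 in Hras cells, whereas Pdk4 rose by 4.14 and 5.83.

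The 250 bases before the transcription start of Pdk4, the gene with the ligand response, were searched for the letters that the receptor class is known to bind. None were found, so no letters of that class are marked. The sequence is RefSeq's, in the build GRCm38.p6, at chr6:5496279-5496528 on the minus strand, and capitals mark the HIF core (ACGTG or GCGTG, either strand).
Pdk4: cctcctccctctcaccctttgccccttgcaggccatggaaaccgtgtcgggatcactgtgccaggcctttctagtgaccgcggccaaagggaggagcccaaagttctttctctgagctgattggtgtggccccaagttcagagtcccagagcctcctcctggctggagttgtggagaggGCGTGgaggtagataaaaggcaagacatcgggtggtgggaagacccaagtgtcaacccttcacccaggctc
The PPAR half-site AGGTCA was searched on both strands, as was the direct repeat DR1, in which AGGTCA is followed by 1 base and a second AGGTCA. The 9 promoter entries of 7 of the 8 genes in that table held 0 half-sites and 0 DR1 motifs with up to 2 mismatches. Among 32851 promoters of the same length, 14% held a half-site and 3.24% such a DR1. The forkhead core GTAAACA was in 0 of the 9 and in 3.17% of all promoters. A window with no match says only that these letters are not within 250 bases of the start.

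Pdk1 rose with GW0742 after Hras in both genotypes, by about 1.4-fold, and it rose with Hras in all 4 settings. In wild-type Hras cells its arrays read 9.85, 9.92 and 9.96 with DMSO and 10.21, 10.29 and 10.60 with GW0742. In null Hras cells they read 10.03, 10.15 and 10.13 with DMSO and 10.45, 10.66 and 10.47 with GW0742. In both genotypes all GW0742 arrays lay above all DMSO arrays. A lack of overlap in either direction held for 22.3% of all genes in wild-type and 15.1% in null Hras cells. The rise of Pdk1 was 0.46 ± 0.08 in wild-type cells (1.37-fold, adjusted p = 0.000342) and 0.42 ± 0.08 in null cells (1.34-fold, adjusted p = 0.00172). The 2 effects differed by -0.04 ± 0.11 (95% interval -0.26 to 0.19, adjusted p = 0.957). Beside this, 5 of 6 melanocyte markers rose with GW0742 in null Hras cells, where their mean level was 9.34 to 9.42 with DMSO and 9.64 to 9.90 with GW0742, and 0 of 6 passed in the other 3 ligand comparisons; their part in the result was not tested. In the fit of the 2 null Hras groups alone the rise in null cells did not pass (adjusted p = 0.136).

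Without Hras, Pdk1 showed no detected response to the ligand. Wild-type mock arrays read 9.39, 9.40 and 9.40 with DMSO and 9.38, 9.47 and 9.39 with GW0742, and null mock arrays read 9.70, 9.62 and 9.57 with DMSO and 9.67, 9.67 and 9.67 with GW0742. DMSO and GW0742 arrays overlapped in both genotypes, and the differences were 0.01 ± 0.08 (95% interval -0.14 to 0.17) and 0.04 ± 0.08 (95% interval -0.12 to 0.19). The ligand effect was larger after Hras than after mock infection by 0.44 ± 0.11 in wild-type cells (adjusted p = 0.0279) and by 0.39 ± 0.11 in null cells (adjusted p = 0.0808), and only the former passed. That call was lost in 8 of 12 fits that left out 1 array, with values between 0.33 and 0.52 over the 12. They were those without any of the 3 wild-type mock DMSO arrays, wild-type mock GW0742 replicates 1 and 3, wild-type Hras DMSO replicates 1 and 2, or wild-type Hras GW0742 replicate 3. In null cells the difference passed without null Hras GW0742 replicate 1 (0.42, adjusted p = 0.0345). The lowest value came without wild-type Hras GW0742 replicate 3 (0.33, adjusted p = 0.0659), the array that read 10.60.

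**Figure D2:**
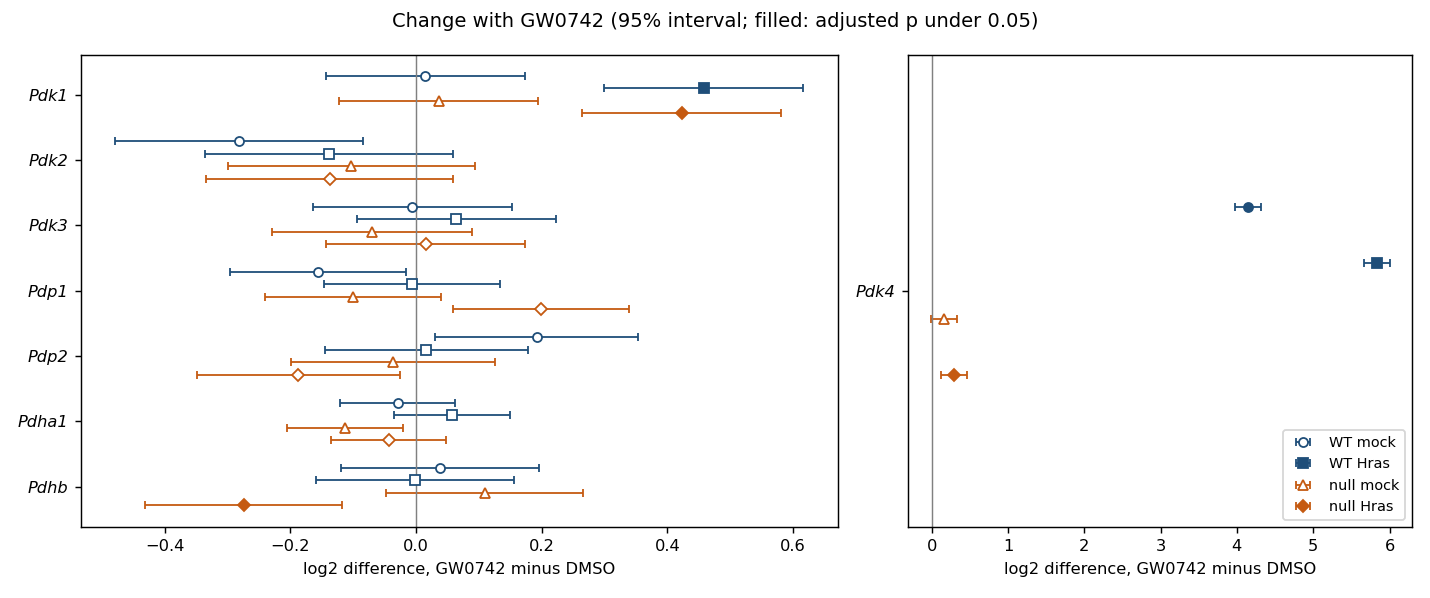
Change of each gene with GW0742, as the log2 difference with its 95% interval from the model of 24 arrays, in 4 settings of genotype and infection. Filled symbols have an adjusted p under 0.05, and Pdk4 has an axis of its own because its changes reach 5.83. Pdk1 lies at 0.46 and 0.42 in the 2 Hras settings and near 0 in the mock settings.

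With Hras, Pdk1 rose by 0.51 ± 0.08 in wild-type (adjusted p = 1e-05) and 0.47 ± 0.08 in null cells with DMSO (adjusted p = 2.41e-05). With GW0742 the rises were 0.95 ± 0.08 (1.94-fold, adjusted p = 1.07e-09) and 0.86 ± 0.08 (1.81-fold, adjusted p = 4.96e-09). The group means ran from 9.40 ± 0.0033 in wild-type mock cells with DMSO to 10.53 ± 0.12 in null Hras cells with GW0742, a span of 1.13. In that order all 4 mock groups came below all 4 Hras groups, and within each infection the null cells were the higher at each ligand. The Hras effect on Pdk1 did not differ between genotypes beyond the threshold, at -0.04 ± 0.11 with DMSO (95% interval -0.26 to 0.18) and -0.10 ± 0.11 with GW0742 (95% interval -0.32 to 0.13). Null minus wild-type, Pdk1 was 0.26 ± 0.08 higher in mock cells with GW0742 (adjusted p = 0.0181), a call lost without wild-type mock GW0742 replicate 1 (0.24, adjusted p = 0.0666) or replicate 3 (0.24, adjusted p = 0.0609). In the other 3 settings the difference was 0.16 to 0.23 and did not pass. It did pass in Hras cells with GW0742 without wild-type Hras GW0742 replicate 3 (0.28, adjusted p = 0.00438).

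The HIF target genes, the group to which Pdk1 belongs by textbook knowledge, were described beside it. Of 13 measured of 14 listed, 3 rose with GW0742 in wild-type mock cells, 11 in wild-type Hras cells, 0 in null mock cells and 9 in null Hras cells, and 0 fell in any of them. In these 4 comparisons 2.86%, 6.11%, 0% and 5.02% of all genes passed in either direction. The median change of the list was 0.44 in wild-type Hras and 0.35 in null Hras cells, against -0.01 and 0.00 over all genes. Egln3, an oxygen-sensing hydroxylase that limits HIF, rose with GW0742 by 1.49 ± 0.15 in wild-type Hras cells (adjusted p = 8.64e-07) and by 1.17 ± 0.15 in null Hras cells (adjusted p = 0.000134). Pfkfb3, an enzyme that speeds glycolysis, rose by 1.31 ± 0.19 (adjusted p = 8.51e-05) and by 0.67 ± 0.19 (adjusted p = 0.0492). The ligand effect in Hras cells differed between genotypes for 0 of the 13, with a median difference of -0.13 against 0.01 over all genes. With Hras, 9 of the 13 were higher in wild-type cells with DMSO, where 37.4% of all genes passed in either direction. In each of the other 3 settings 13 of the 13 were higher, against 35.2% to 41.8% of all genes passing. Hif1a, the gene of the regulated HIF subunit, fell with Hras in all 4 settings (-0.42 to -0.20), and its change with GW0742 did not pass in any.

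**Figure D3:**
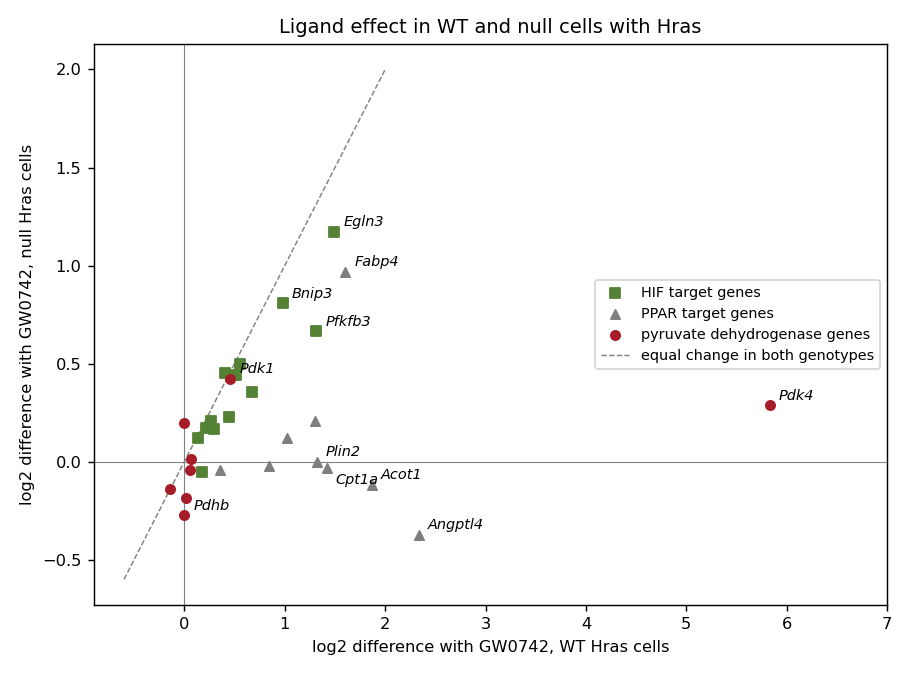
Change with GW0742 in null Hras cells (vertical) against wild-type Hras cells (horizontal), both as log2 differences between groups of 3 arrays, for the 8 genes, 13 HIF target genes and 9 PPAR target genes. The dashed line marks equal change in both genotypes. Pdk4 lies at 5.83 and 0.29, far below the line, and Pdk1 lies near it at 0.46 and 0.42.

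The promoter of Pdk1, shown because its gene moved with the HIF targets, holds 1 HIF core in the 250 bases before the more upstream of its 2 listed starts, between 78 and 74 bases before the start. It is RefSeq's sequence in GRCm38.p6 at chr2:71872974-71873223 on the plus strand, with the HIF core in capitals.
Pdk1: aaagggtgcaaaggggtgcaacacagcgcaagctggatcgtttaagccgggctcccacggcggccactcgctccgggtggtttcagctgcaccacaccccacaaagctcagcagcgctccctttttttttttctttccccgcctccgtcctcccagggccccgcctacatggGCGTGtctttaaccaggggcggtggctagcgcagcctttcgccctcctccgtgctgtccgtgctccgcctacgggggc
The HIF core is common, in 38.6% of 32851 promoter entries. At least 1 match stood before a listed start of all 7 genes with an entry (Pdk1, Pdk2, Pdk3, Pdk4, Pdp2, Pdha1 and Pdhb), which moved in different directions. The second entries of Pdk1 and Pdk2 held no match, and the share counts entries rather than genes. A match is a description of letters and not of a bound site.

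Pdk2 fell with Hras, and it fell further in null than in wild-type cells. In null cells with DMSO its arrays read 9.31, 9.50 and 9.61 after mock infection and 8.54, 8.47 and 8.28 after Hras. With GW0742 they read 9.40, 9.46 and 9.25 after mock infection and 8.45, 8.22 and 8.21 after Hras. The mock and Hras arrays of null cells stood apart by more than 0.7 in every case. The fall was -1.04 ± 0.09 with DMSO (2.06-fold lower, adjusted p = 6.78e-09) and -1.08 ± 0.09 with GW0742 (2.11-fold lower, adjusted p = 4.17e-09). In wild-type cells the arrays read 9.04, 9.06 and 9.20 after mock infection and 8.90, 8.80 and 8.60 after Hras with DMSO, and 8.71, 8.92 and 8.83 against 8.69, 8.66 and 8.53 with GW0742. Mock and Hras arrays did not overlap there, but the nearest lay within 0.15 of each other. Nor did they overlap for 49.5% of all genes with DMSO and 47.2% with GW0742. In null cells these shares were 48.9% and 45%. The differences of Pdk2 were -0.33 ± 0.09 (adjusted p = 0.00728) and -0.19 ± 0.09 (adjusted p = 0.137), the first of which no longer passed without wild-type Hras DMSO replicate 3 (-0.25, adjusted p = 0.0605). Tested directly, the Hras effect on Pdk2 was more negative in null cells by -0.71 ± 0.13 with DMSO (adjusted p = 0.000676) and by -0.89 ± 0.13 with GW0742 (adjusted p = 4e-05).

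Between genotypes Pdk2 changed sign with Hras. Null cells were higher in mock cells by 0.37 ± 0.09 with DMSO (adjusted p = 0.0118) and 0.55 ± 0.09 with GW0742 (adjusted p = 0.000175). After Hras they were lower by -0.34 ± 0.09 with either ligand (adjusted p = 0.0137 and 0.0134). Of these 4 calls, the one in mock cells with GW0742 held in all 6 fits that left out 1 array, with values from 0.50 to 0.61. The one in mock cells with DMSO was lost without wild-type replicate 1 (0.34, adjusted p = 0.0605) or null replicate 3 (0.31, adjusted p = 0.0816). Each of the calls after Hras was lost in 3 of 6 such fits, with values from -0.42 to -0.26 with DMSO and from -0.41 to -0.29 with GW0742. The arrays whose omission ended them were wild-type Hras DMSO replicates 1 and 2 and null Hras DMSO replicate 3, and wild-type Hras GW0742 replicate 1 and null Hras GW0742 replicates 2 and 3. In the same 4 genotype comparisons fibroblast markers also passed: 7 of 8 were lower in null mock cells with DMSO (median -0.65) and 6 of 8 with GW0742 (median -0.54), and 5 of 8 were higher in null Hras cells with DMSO (median 0.28) and 2 of 8 with GW0742 (median 0.14). In these 4 comparisons 10.4%, 22.0%, 19.4% and 21.1% of all genes passed. The Hras effect on the markers was more positive in null cells for 7 of 8 with DMSO (16.8% of all genes passed) and 6 of 8 with GW0742 (24.1% of all genes). These signs are opposite to those of Pdk2. With Hras itself, most fibroblast markers fell, as Pdk2 did: 8 of 8 in wild-type cells with either ligand. In null cells 5 of 8 fell with DMSO and 6 of 8 with GW0742, and 1 rose in each. In these Hras comparisons 35.2% to 41.8% of all genes passed. The part of the markers in the Pdk2 values was not tested. The group means of Pdk2 spanned 1.18 and the order ran from the 4 Hras groups at 8.29 to 8.77 up to the 4 mock groups at 8.82 to 9.47, with no step between neighbours that passed. The difference of Pdk2 with GW0742 was -0.28 to -0.10 in the 4 settings, and 0 of them passed (adjusted p from 0.139 to 0.939).

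Pdk3 fell with Hras in all 4 settings. Its arrays lay between 9.85 and 10.08 in the 4 mock groups and between 9.38 and 9.72 in the 4 Hras groups, so that no Hras array reached a mock array. Within the 4 settings, mock and Hras arrays did not overlap for 45% to 49.5% of all genes. The falls were -0.38 ± 0.08 in wild-type cells with DMSO (adjusted p = 0.000372), -0.31 ± 0.08 in wild-type cells with GW0742 (adjusted p = 0.00282), -0.52 ± 0.08 in null cells with DMSO (adjusted p = 6.8e-06) and -0.44 ± 0.08 in null cells with GW0742 (adjusted p = 6.17e-05). All 4 held without any 1 array. With a minimum fold of 1.2, only the call in null cells with DMSO held. The Hras effect did not differ between genotypes beyond the threshold, at -0.15 ± 0.11 with DMSO (95% interval -0.37 to 0.08) and -0.13 ± 0.11 with GW0742 (95% interval -0.35 to 0.09). Neither the ligand (-0.07 to 0.06) nor the genotype (-0.07 to 0.12) gave a difference in Pdk3 that passed.

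The spans of the phosphatases, 0.475 for Pdp1 and 0.558 for Pdp2, were similar to that of Pdk3 (0.521) and smaller than those of the other 3 kinases. Pdp1, the isoform sensitive to calcium, rose with Hras in null cells and fell with Hras in wild-type cells with DMSO. With DMSO its wild-type arrays read 9.85, 9.84 and 9.82 after mock infection and 9.56, 9.71 and 9.62 after Hras, and its null arrays read 9.66, 9.65 and 9.80 after mock infection and 10.04, 9.79 and 9.80 after Hras. The wild-type arrays did not overlap (nor did those of 49.5% of all genes), and the null arrays did (those of 48.9% of all genes did not). The difference was -0.20 ± 0.07 in wild-type (adjusted p = 0.0207) and 0.17 ± 0.07 in null cells (adjusted p = 0.0432), both narrow: the former was lost without wild-type mock DMSO replicate 1 or 2 or wild-type Hras DMSO replicate 1 or 3 (-0.24 to -0.17 over 6 such fits). The latter was lost at a value of 0.15 in the fits without null mock DMSO replicate 1 (adjusted p = 0.135) and without its replicate 2 (adjusted p = 0.143). Without null Hras DMSO replicate 1 it was 0.09 (adjusted p = 0.3).

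With GW0742, Pdp1 read 9.61, 9.74 and 9.68 in wild-type mock, 9.53, 9.74 and 9.60 in wild-type Hras, 9.53, 9.64 and 9.63 in null mock and 10.06, 10.07 and 10.09 in null Hras cells. The null Hras arrays were higher than all others in that ligand. A lack of overlap in either direction held for 45% of all genes against null mock and 28.7% against wild-type Hras cells. Pdp1 rose with Hras in null cells by 0.47 ± 0.07 (1.39-fold, adjusted p = 4.53e-06), with a difference of -0.05 ± 0.07 in wild-type cells (adjusted p = 0.628). The Hras effect was more positive in null cells by 0.38 ± 0.10 with DMSO (adjusted p = 0.00777) and by 0.53 ± 0.10 with GW0742 (adjusted p = 0.000276), and both calls held without any 1 array. After Hras, null cells exceeded wild-type by 0.24 ± 0.07 with DMSO (adjusted p = 0.0126) and by 0.45 ± 0.07 with GW0742 (adjusted p = 4.02e-05), and the former was lost without wild-type Hras DMSO replicate 1 (0.21, adjusted p = 0.0688) or null Hras DMSO replicate 1 (0.16, adjusted p = 0.0916). The fibroblast markers moved the same way as Pdp1 in both tests of the Hras effect by genotype (7 of 8 with DMSO and 6 of 8 with GW0742 more positive in null cells), and their part in its values was not tested.

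Pdp2, the second phosphatase, was higher with Hras in 3 of 4 settings, by 0.28 ± 0.08 in wild-type cells with DMSO (adjusted p = 0.00569), 0.37 ± 0.08 in null cells with DMSO (adjusted p = 0.000436) and 0.22 ± 0.08 in null cells with GW0742 (adjusted p = 0.0261). The last was lost without null mock GW0742 replicate 2 (0.20, adjusted p = 0.0834) or 3 (0.21, adjusted p = 0.0739), and was 0.13 without null Hras GW0742 replicate 1 (adjusted p = 0.186). In wild-type cells with GW0742 the difference was 0.11 ± 0.08 (adjusted p = 0.338). Its arrays ran from 7.85 in wild-type mock cells to 8.57 in null Hras cells, both with DMSO. Null Hras cells with DMSO exceeded the wild-type by 0.28 ± 0.08 (adjusted p = 0.0142), a call lost without wild-type Hras DMSO replicate 2 (0.24, adjusted p = 0.0711) or null Hras DMSO replicate 3 (0.25, adjusted p = 0.0599). With GW0742, 0 of the 8 phosphatase differences passed (Pdp1 from -0.16 to 0.20, Pdp2 from -0.19 to 0.19). In null Hras cells Pdp1 passed without null Hras DMSO replicate 1 (0.28, adjusted p = 0.021) and Pdp2 without null Hras GW0742 replicate 1 (-0.28, adjusted p = 0.0161).

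Pdha1, the subunit the kinases phosphorylate, and Pdhb, its partner, were the steadiest of the 8, with spans of 0.259 and 0.274. Pdha1 lay between 10.85 and 11.20 and Pdhb between 8.18 and 8.60 over all 24 arrays. Pdha1 was higher with Hras in null cells by 0.15 ± 0.04 with DMSO (adjusted p = 0.01) and by 0.22 ± 0.04 with GW0742 (adjusted p = 0.000358). In wild-type cells the differences were 0.01 ± 0.04 and 0.09 ± 0.04, and neither passed. The Hras effect on Pdha1 did not differ between genotypes beyond the threshold. Null minus wild-type it was 0.14 ± 0.06 with DMSO (adjusted p = 0.148) and 0.12 ± 0.06 with GW0742 (adjusted p = 0.183). Null Hras cells with DMSO exceeded wild-type by 0.14 ± 0.04 in Pdha1 (adjusted p = 0.0305), a call lost without any 1 of these 6 arrays other than null Hras DMSO replicate 3 (0.12 to 0.15). In the other 3 genotype comparisons Pdha1 did not pass, and Pdhb passed in 0 of 4, with null minus wild-type values of 0.04 and 0.11 in mock cells and 0.18 and -0.09 in Hras cells with DMSO and GW0742. Pdhb was lower with GW0742 in null Hras cells, where DMSO arrays read 8.60, 8.54 and 8.49 and GW0742 arrays 8.40, 8.22 and 8.18. The difference was -0.27 ± 0.08 (adjusted p = 0.0367), and it was lost without any 1 of these 6 arrays other than null Hras GW0742 replicate 1 (-0.34 to -0.23). With GW0742 Pdhb also fell with Hras in null cells by 0.21 on the log2 scale (adjusted p = 0.0288), a call lost without null mock GW0742 replicate 1 or 3 or null Hras GW0742 replicate 2 or 3 (-0.28 to -0.17 over 6 such fits).

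**Figure D4:**
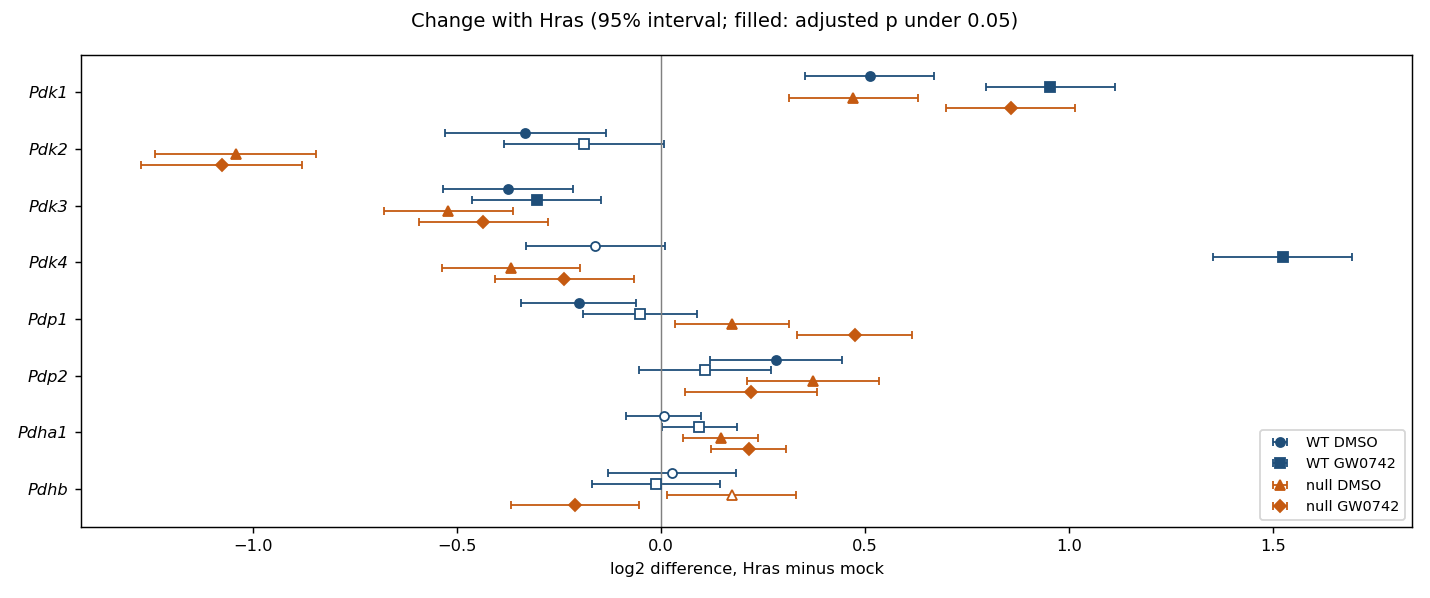
Change of each gene with Hras, as the log2 difference between Hras and mock cells with its 95% interval, in 4 settings of genotype and ligand. Filled symbols have an adjusted p under 0.05. Pdk1 lies right of 0 and Pdk3 left of 0 in all 4 settings, Pdk2 lies near -1 in null cells, and Pdk4 lies at 1.52 with GW0742 in wild-type cells.

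Counted over the 8 genes, GW0742 changed 1 in wild-type mock cells, where 2.86% of all genes passed, 2 in wild-type Hras cells (6.11% of all genes), 0 in null mock cells (0% of all genes) and 3 in null Hras cells (5.02% of all genes). In null mock cells 0 of all 19937 genes passed in limma, and 1097 of them, with Pdha1 among the 8, had an unadjusted p under 0.05. Hras changed 5 of the 8 in wild-type cells with DMSO (37.4% of all genes) and 3 with GW0742 (35.2% of all genes), 7 in null cells with DMSO (40.7% of all genes) and 8 with GW0742 (41.8% of all genes). Since at least 35.2% of all genes passed in each, the count of Hras calls is not read as a result about these 8. Genotype separated 1 of the 8 in mock cells with DMSO (10.4% of all genes), 3 in mock cells with GW0742 (22.0% of all genes), 4 in Hras cells with DMSO (19.4% of all genes) and 3 in Hras cells with GW0742 (21.1% of all genes). The Hras effect differed by genotype for 2 genes with DMSO (16.8% of all genes) and 3 with GW0742 (24.1% of all genes). The test of the ligand effect in Hras against mock cells passed for 2 genes in wild-type cells (2.47% of all genes) and 0 in null cells (1.62% of all genes), where 3 of the 8 had an unadjusted p under 0.05. Groups with DMSO or mock infection serve in several of these comparisons, so the counts are not independent.

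Other parts of the complex and of pyruvate use were taken from lists given in words here. Of 5 partners of the complex (Dlat, Dld, Pdhx, Pdpr and Pdha2), 0 passed with GW0742 in wild-type cells of either infection, and Dlat, the E2 core enzyme, fell by -0.25 ± 0.06 with GW0742 in null Hras cells (adjusted p = 0.0171). Pdpr, the regulatory subunit of the phosphatase, fell with Hras in all 4 settings, by -0.61 ± 0.06 and -0.48 ± 0.06 in wild-type and by -0.48 ± 0.06 and -0.34 ± 0.06 in null cells with DMSO and GW0742. Pdpr lowers the phosphatase's sensitivity to magnesium. Of 13 measured of 14 genes that make, move or use pyruvate, 3 rose and 2 fell with GW0742 in each of wild-type mock and Hras cells, 0 changed in null mock cells, and 1 rose and 1 fell in null Hras cells. The shares of all genes passing in these 4 comparisons were 2.86%, 6.11%, 0% and 5.02%. In wild-type Hras cells the lactate exporter Slc16a3 rose by 0.76 ± 0.08 and malic enzyme Me1 by 0.69 ± 0.05, and the mitochondrial pyruvate carrier Mpc1 changed by -0.38 ± 0.07. Slc16a3 rose with GW0742 also in null Hras cells, by 0.34 ± 0.08 (adjusted p = 0.00991), less than in wild-type by -0.42 ± 0.11 (adjusted p = 0.0471). With Hras, 6 or 7 of the 13 were higher and 4 to 6 lower in each setting, where 35.2% to 41.8% of all genes passed. Slc16a7, a carrier of monocarboxylates, fell in the 4 settings (-3.58 to -2.66) and Slc16a3 rose by 1.96 to 2.50.

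Citrate cycle genes moved little with the ligand: of 16 measured of 17, 1 rose in wild-type mock cells (Suclg1), 1 fell in null Hras cells (Acly) and 0 passed in the other 2 settings. Of 7 genes that make and attach lipoate, the swinging arm of the complex, 0 passed with the ligand in wild-type or null mock cells, and Nfu1 fell in null Hras cells. Of 15 regulators described for the kinase genes, GW0742 lowered Epas1 (the HIF-2 gene) in wild-type mock cells, raised Nr3c1 and Foxo3 and lowered Ppargc1a in wild-type Hras cells, changed 0 in null mock cells, and raised Foxo3 and Ppargc1b in null Hras cells. Foxo3, a forkhead factor, rose by 0.22 in both Hras settings. Ppard itself rose with Hras in all 4 settings, while Rxra, its dimer partner, fell (-1.01 to -0.54). The rises of Ppard were 0.46 and 0.56 in wild-type and 0.75 and 0.65 in null cells with DMSO and GW0742, and null cells lack a functional Ppard gene.

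Markers of several cell types moved with Hras and with genotype, and their part in the values above was not tested. All 8 fibroblast markers were lower with Hras in wild-type cells (median -1.51 with DMSO and -1.43 with GW0742), and in null cells 5 were lower and 1 higher with DMSO and 6 lower and 1 higher with GW0742. Their mean level ran from 9.03 to 9.06 in wild-type mock cells and from 7.68 to 7.77 in wild-type Hras cells with DMSO, and from 8.37 to 8.42 and from 7.88 to 8.09 in null cells. Of 6 melanocyte markers, 6 were lower with Hras in 3 settings and 5 in null cells with GW0742, and 5 were higher with GW0742 in null Hras cells. Of 10 keratinocyte markers, 7 or 8 were lower with Hras in each setting, and 1 was higher in each setting other than wild-type with DMSO, with Krt1 and Krt10 ranging over several units and Krt5 and Krt14 within 0.4. Fewer cells of a type and less RNA per cell cannot be told apart in such cultures.

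Genes with the pattern most like Pdk4 were Abca1, a cholesterol exporter (r of the 8 group means 0.983), Acot1, an acyl-CoA thioesterase (0.966), Eci2, an enzyme of unsaturated fatty acid breakdown (0.963), Adh6b (0.948) and Tmem125 (0.945). They were ranked among 1947 genes whose group means span at least 1, and the groups share genotype, infection and ligand, so high values are common. The mean of Abca1 was 9.26 with DMSO and 10.66 with GW0742 in wild-type mock cells, and 9.57 and 11.13 in wild-type Hras cells. With GW0742, Adh6b (6.74 and 7.16) and Tmem125 (9.76 and 10.07) also read higher in wild-type Hras than in wild-type mock cells. Acot1 (9.65 in mock and 9.47 in Hras) and Eci2 (10.48 and 10.41) did not, unlike Pdk4. For Pdk1 they were Tmem163 (0.992), Tmc7 (0.989), Prelid2 (0.986), Mgarp (0.984) and Cxcl3 (0.982). For Pdk2 they were Satb1 (0.992), Nrep (0.991), Tapbp, Parp12 and Fam171a2 (each 0.989). With DMSO the mean of Nrep was 11.19 in null mock and 8.70 in null Hras cells, and 10.03 and 9.58 in the wild-type groups.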

How the data were processed

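RNA of 24 samples of mouse primary keratinocytes was hybridised to Affymetrix Mouse Gene 1.0 ST arrays, which label 1 sample each. The values deposited by the authors are on the log2 scale, in 1 table made with RMA per the submitters' processing notes; its software and version are not stated. RMA equalises the distributions of the arrays, which hides a shift common to most genes. Values lay between 2.27 and 14.8, with 0 missing, and no further normalization was applied. Arrays have no read depth, and their number limits the precision.

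Of 34760 probe sets, the platform annotation names 1 gene for 21640, more than 1 for 1321 and lists none for 11799. Each gene is its probe set with 1 symbol and the highest mean over 24 arrays. Each of the 8 genes had 1 such probe set, and all 8 matched RefSeq by Entrez identifier. Arrays were grouped from the labels, and limma 3.58.1 in R 4.3.3 estimated 1 mean per group over all 24 arrays (16 residual and 4.43 prior degrees of freedom). From it came 12 comparisons of 2 groups and 6 differences of effects, two-sided, adjusted by Benjamini-Hochberg over 19937 genes with a threshold of 0.05, with no filter on dim genes. All p-values are limma's. Intervals are 95% and unadjusted. The procedure was tested on simulated data.

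The 8 genes, the lists and the tests were chosen with earlier results of these data known. All 8 genes were tested in every comparison, and some values that did not pass are left out. Of each pathway list, up to 4 passing members with the largest change could be named in a comparison. Genes most like a member are the 5 with the highest correlation of the 8 group means, among genes spanning at least 1. Hif1a, Pdpr, Slc16a3 and marker genes named outside that rule were chosen after their values were seen. Alternatives were array medians centred, the dimmest 40% of genes left out, moderation with trend and robust settings, all probe sets tested separately, a fit of only the groups compared, the replicate number as a block, a minimum fold of 1.2, and each array left out in turn. Promoter sequences are RefSeq's. Figures were drawn with matplotlib 3.10.9.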

Additional observations from a re-analysis of the deposited data

Results flagged for a closer look

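Each flagged result is a difference of an effect between 2 settings that passed limma's test at an adjusted p under 0.05. Groups of 3 arrays are not tested for single outlying samples. Null minus wild-type, the ligand effect on Pdk4 differed by -3.99 in mock and by -5.54 in Hras cells. It was larger after Hras than after mock infection in wild-type cells by 1.69. The Hras effect on Pdk4 with GW0742 was smaller in null cells by -1.76. The ligand effect on Pdk1 in wild-type cells was larger after Hras by 0.44. The Hras effect on Pdk2 was more negative in null cells by -0.71 with DMSO and -0.89 with GW0742, and that on Pdp1 was more positive in null cells by 0.38 and 0.53.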

How the results depend on the processing

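Over the 8 genes and 18 comparisons, 7 alternatives of the processing gave 1008 values. Of these, 944 stayed on their side of the threshold, 52 lost the call, 12 gained it and 0 reversed. A reversal was counted only where the value passed in the main fit or in the alternative. Values that passed in neither counted as staying, and some of them changed sign. Leaving out 1 array at a time gave 1152 values, of which 1094 stayed, 52 lost the call, 6 gained it and 0 reversed, counted in the same way. The rise of Pdk4 with GW0742 in wild-type cells kept its call throughout. Its change in null Hras cells was 0.28 with array medians centred (adjusted p = 0.0613), 0.29 with every probe set kept (adjusted p = 0.0855), with only the groups compared (adjusted p = 0.339) and with a minimum fold of 1.2 (adjusted p = 1), and 0.22 to 0.35 with 1 array left out.

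Counts of the 8 genes that passed moved as follows, and the cause was not tested. With a minimum fold of 1.2 the count was 1 for GW0742 in wild-type Hras cells, 0 for GW0742 in null Hras cells, 1 for Hras in wild-type cells with DMSO, 3 for Hras in null cells with either ligand, 0 for genotype in mock cells with DMSO and 1 with GW0742, 0 for genotype in Hras cells with DMSO and 1 with GW0742, and 1 each for the Hras effect by genotype with DMSO and the ligand effect by Hras in wild-type cells. With only the groups compared it was 0 for GW0742 in null Hras cells, 5 for Hras in null cells with GW0742, 2 for genotype in mock cells with DMSO, 1 for genotype in Hras cells with DMSO and 1 for the ligand effect by Hras in wild-type cells. With every probe set kept it was 1 for GW0742 in null Hras cells and 1 for the ligand effect by Hras in wild-type cells. With dim genes left out it was 2 for genotype in mock cells with DMSO and 2 for the ligand effect by Hras in null cells, and with trend and robust moderation 2 and 1. With 1 array left out it was 1 to 4 for GW0742 in null Hras cells, 3 to 5 for Hras in wild-type cells with DMSO, 0 to 1 for genotype in mock cells with DMSO, 1 to 3 for genotype in Hras cells with DMSO, 1 to 2 for the ligand effect by Hras in wild-type cells and 0 to 2 in null cells.

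No consistent pairing by replicate number was seen. Correlations of same-numbered arrays ranged from -0.287 to 0.253, and 11 of 24 arrays correlated best with their own number. Every pair was over 0.1 in 1 of 12 comparisons (null minus wild-type in mock cells with DMSO). Such correlations cannot show that no pairing existed. With the replicate number as a block, 143 of 144 values kept their call, and the Hras effect on Pdp1 in null cells with DMSO (0.17, adjusted p = 0.0503) lost it. Each gene had 1 probe set, so the alternative of using another probe set of a member was not run. Signal over background was not given for these arrays, so the limits of dim genes were not set.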
